A study of Homo sapiens with 8 samples.

Results

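The 10 genes described here encode zinc finger transcription factors of the EGR family (EGR1, EGR2 and EGR3) and of the KLF family (KLF2, KLF4, KLF5, KLF6, KLF9, KLF10 and KLF13). They were picked by gene name, with earlier results of these data known, from the 60282 genes listed in an RNA-seq count table. The cells were SK-UT-1, an established line grown from a uterine leiomyosarcoma, a malignant smooth muscle tumor of the uterus. One group of 4 libraries came from cells given DMSO, the vehicle, and the other group of 4 from cells given TP-472 at 5 µM for 48 h. TP-472 is a small molecule that binds the bromodomains of BRD9 and BRD7, subunits of SWI/SNF chromatin remodeling complexes. All libraries came from this single tumor line, and the sample descriptions do not say whether replicates were separate cultures, although the study's methods describe its experiments in general as biologically replicated. The p-values measure the spread between these libraries, which may be technical if they were not.

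EGR factors are products of immediate early genes, which are transcribed within minutes of a growth factor, stress or mechanical signal without new protein synthesis, and they bind GC-rich DNA through 3 zinc fingers. KLF factors have a related set of fingers that binds GC boxes and CACCC boxes, and different members activate or repress their targets. In smooth muscle, EGR1, KLF4 and KLF5 are known for their link to the switch from a contractile to a proliferating state, and KLF9 is known as a progesterone receptor partner in the uterus.

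Levels are given as CPM, read counts scaled to a common library total with edgeR's TMM method, and a difference is a log2 fold change of TP-472 over vehicle. The total count ran from 32574716 to 36634184 in vehicle libraries and from 36246466 to 38545695 in TP-472 libraries. A gene was tested when it exceeded 1 CPM in at least 4 libraries, and it was called when edgeR's quasi-likelihood test gave a Benjamini-Hochberg adjusted p under 0.05 with a fold change over 1.5. Of the 10 genes, 8 were tested, and EGR2 and EGR3 lay under the filter.

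The cells carried mesenchymal markers and an incomplete set of smooth muscle markers. CALD1, the most abundant of 9 smooth muscle markers, had 200 CPM in vehicle and 192 CPM in TP-472 libraries, while MYH11 and ACTG2, which define mature smooth muscle, were near 0, with means of 0.00703 and 0.0214 CPM in vehicle and 0.236 and 0.033 CPM in TP-472 libraries. MYH11 had 0, 0, 0 and 1 rounded counts in vehicle and 10, 8, 7 and 10 in TP-472 libraries, with no overlap. Of the 7 that passed the filter, DES (−2.36 on the log2 scale), LMOD1 (−1.84) and TAGLN (−0.67) were called lower, where 14.9% of all tested genes were. With a correction for GC content, 2 of the 7 were called lower, against 14.7% of all tested genes. Without vehicle replicate 3, 4 of the 7 were, against 13.4% of all tested genes, with ACTA2 added (−0.594, edgeR adjusted p = 0.000138). DES and LMOD1 exceeded 1 CPM in vehicle libraries alone and passed the filter through the group in which they were higher. DESeq2, which fitted all 9, called 3 lower and 1 higher, beside 12.5% and 11.6% of all genes it fitted. The sum of the smooth muscle markers lay between 439 and 524 CPM in vehicle and between 371 and 380.0 CPM in TP-472 libraries.

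Of the 5 mesenchymal markers, all tested, 3 were called lower and 1 higher, where 14.9% and 12.0% of all tested genes were. COL1A2 fell from 589 ± 77.3 to 98.8 ± 4.83 CPM, PDGFRB from 14.4 ± 5.55 to 2.86 ± 0.449 CPM and COL1A1 from 9.19 ± 9.0 to 1.80 ± 0.367 CPM. When vehicle replicate 3 (21.9 CPM) was left out, COL1A1 had 4.95 ± 3.73 CPM in vehicle (n = 3), and its fold size went from 5.08 to 2.74. FN1 rose from 1.5 ± 0.322 to 3.34 ± 0.515 CPM. VIM, the most abundant, had 2538 ± 673 and 1908 ± 57.3 CPM and was not called.

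Markers of other cell types were low, and some of them differed between the groups. Among 5 epithelial markers, of which 3 were tested, KRT18 rose from 7.39 ± 0.871 to 15.6 ± 1.47 CPM and KRT19 fell from 8.88 ± 1.78 to 4.93 ± 1.15 CPM, where 12.0% of all tested genes were called higher and 14.9% lower. With the GC correction KRT19 was not called and KRT8 was called higher (0.687, edgeR adjusted p = 0.0303). This made 2 higher and 0 lower, against 13.4% and 14.7% of all tested genes. Of 4 leukocyte markers, CD68, which other cells also express, had 7.53 ± 0.573 and 10.4 ± 1.48 CPM, with no overlap between the groups, and was called with the GC correction alone (0.605, edgeR adjusted p = 0.00838). PTPRC, the pan-leukocyte marker, was at 0 in every vehicle library, and the 3 endothelial markers, all under the filter, summed to between 0.0554 and 0.144 CPM in vehicle and between 0.414 and 0.581 CPM in TP-472 libraries, with no overlap. The part of these marker changes in the values of the EGR and KLF genes was not tested. In bulk RNA, fewer cells that express a gene and less RNA per cell cannot be told apart.

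Vehicle replicate 3 stood apart from the other vehicle libraries, and several of the 10 genes were at their vehicle maximum in it. Its median Spearman correlation with its own group was 0.914, against 0.988 to 0.989 for the other vehicle libraries and 0.993 to 0.997 for TP-472 libraries. Across genes, its level rose by 0.66 on the log2 scale for each 10 points of GC content of the longest annotated transcript, whereas the slope in the other 7 libraries lay between −0.18 and −0.03. Values without this library are therefore added where it changes a call or a direction or moves a value by over 1.5 times.

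**Figure D1:**
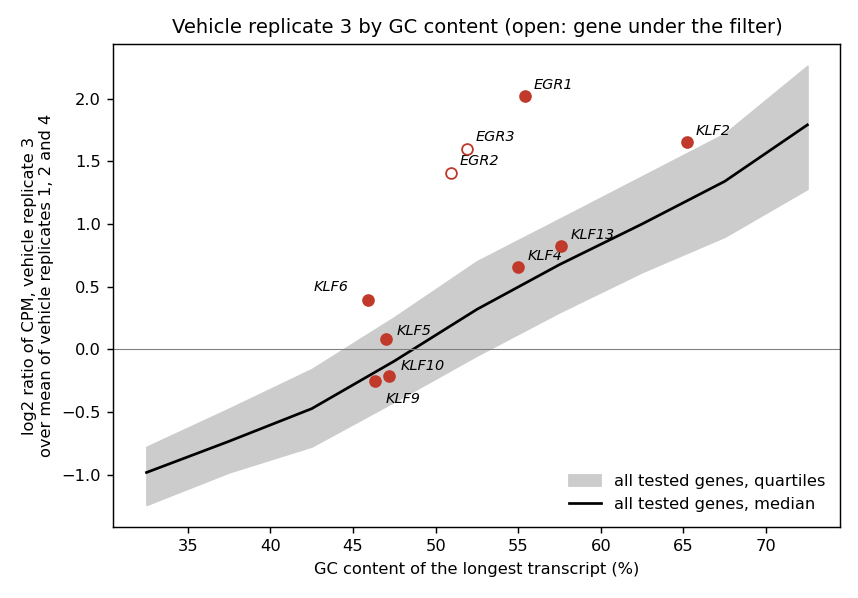
Log2 ratio of the level in vehicle replicate 3 to the mean of the other vehicle libraries against GC content in percent, with the 10 EGR and KLF genes as named points (open where under the filter), and the median and quartiles of all tested genes by GC interval as a line and a grey band. As a plain ratio, the median rises from 0.937 at 45 to 50% GC to 2.54 at 65 to 70% GC, and EGR1, at 55.4% GC, lies at 4.06.

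Of the 8 tested genes, 3 were called: KLF10 and KLF5 rose and KLF9 fell with TP-472. Among all 14073 tested genes 26.9% were called (12.0% higher and 14.9% lower), so a count of 3 is not a result about these genes as a group. These 3 were also the tested members whose groups did not overlap, a pattern seen in 45.4% of all tested genes (every TP-472 library above in 23.8% and below in 21.6%). The median log2 fold change of all 8 tested genes was 0.22, beside −0.03 over all tested genes. Without vehicle replicate 3, 6 of the 8 genes were called, against 25.5% of all genes, with EGR1, KLF2 and KLF4 added as higher. The median was then 0.69. A correction of all libraries for their GC trend gave 5 of 8, against 28.1% of all genes, with KLF2 and KLF4 added but not EGR1.

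**Figure D2:**
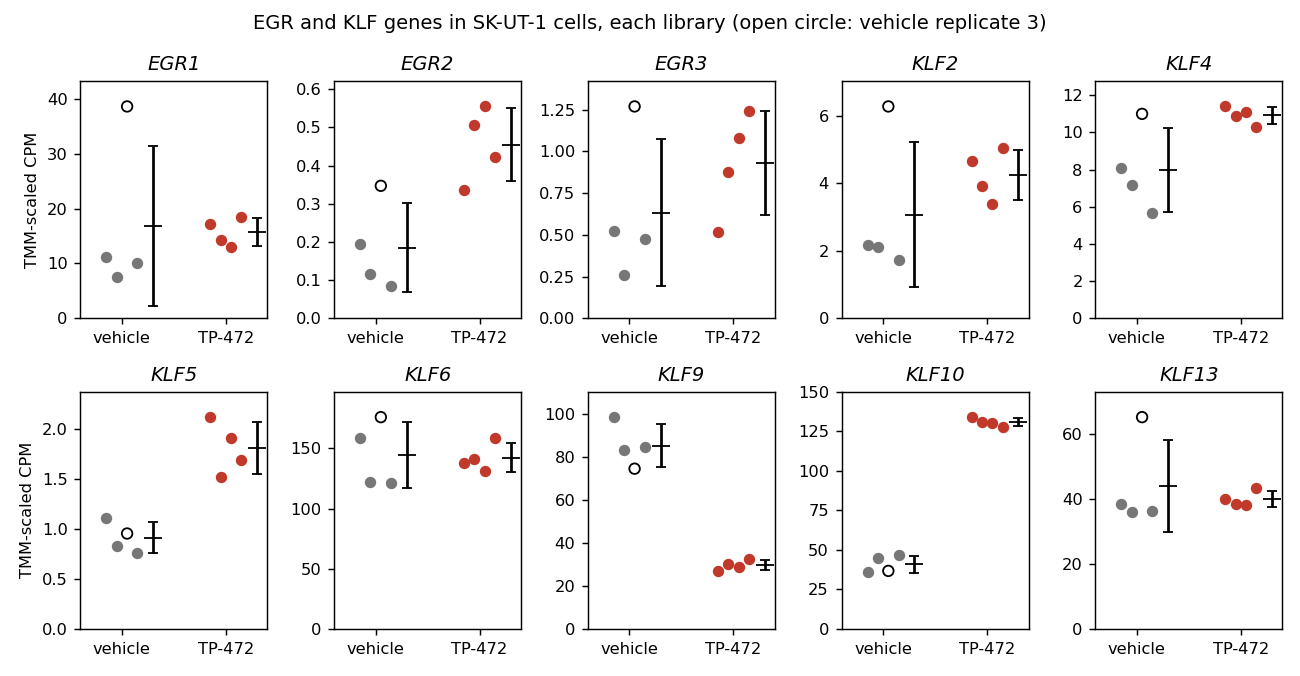
Level of each of the 10 genes in CPM in every library, 4 vehicle and 4 TP-472, with the group mean and SD and vehicle replicate 3 as an open circle. KLF10 and KLF9 are separated widely between the groups, whereas vehicle replicate 3 exceeds every TP-472 library for EGR1 (38.7 CPM) and KLF2 (6.28 CPM).

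**Figure D3:**
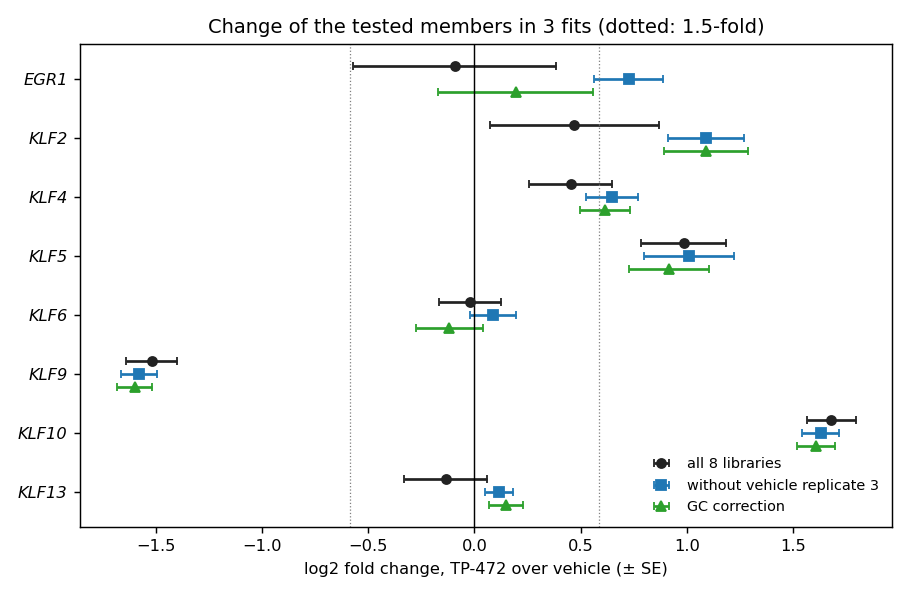
Log2 fold change of TP-472 over vehicle with its standard error for the 8 tested genes, in the fit on all 8 libraries, without vehicle replicate 3 and with the GC correction (dotted lines mark a 1.5-fold change). KLF10 lies at 1.68 and KLF9 at −1.52 in the fit on all libraries, and EGR1 moves from −0.09 to 0.73 when vehicle replicate 3 is left out.

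The promoters of 3 of these genes are shown because they carry serum response elements (EGR1 and EGR2) or a MEF2 element (KLF2). Growth factor signals are known to reach EGR1 and EGR2 through serum response elements. Each stretch covers 140 to 41 bases before a RefSeq start site (GRCh38.p14, for EGR2 the third of its 3 listed starts), and capitals mark a CArG box (the site of SRF), a MEF2 site or the cyclic AMP response half-site CGTCA on either strand.
EGR1, chr5:138465339-138465438, plus strand: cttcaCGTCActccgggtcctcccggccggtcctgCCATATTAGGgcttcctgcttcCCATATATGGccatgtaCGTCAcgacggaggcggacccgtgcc
EGR2, chr10:62816407-62816506, minus strand: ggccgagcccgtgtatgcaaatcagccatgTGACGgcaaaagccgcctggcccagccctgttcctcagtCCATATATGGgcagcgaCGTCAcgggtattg
KLF2, chr19:16324686-16324785, plus strand: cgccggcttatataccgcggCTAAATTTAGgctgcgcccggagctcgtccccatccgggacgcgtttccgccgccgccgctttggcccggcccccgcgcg

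The EGR1 stretch held 2 CArG boxes, which began 105 and 83 bases before the start site, and the EGR2 stretch held 1, which began 71 bases before it. In KLF2 the marked element is a MEF2 site 120 bases before the start. RefSeq windows matched 8 of the 10 genes, with 11 start sites. Over the 250 bases before a start site, a CArG box stood in 1.16% of 35116 promoters, a MEF2 site in 0.515% and CGTCA in 21.2%. The EGR binding site GCGGGGGCG stood in the windows of KLF2 and KLF6 and in 4.72% of all promoters. The window of KLF9 held none of the motifs searched, which also included the GC box GGGCGG, the CACCC box CCACCC, a second EGR site spelled GCGTGGGCG and the glucocorticoid half-site AGAACA, each read on both strands. These matches describe letters in a window, and occupancy was not measured.

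EGR1 (ENSG00000120738.8, GRCh38 chr5:138465490-138469315, plus strand) is the best known of the immediate early factors and activates genes of growth and wound repair. In vehicle libraries it had 11.1, 7.44, 38.7 and 10.1 CPM, and in TP-472 libraries 17.2, 14.3, 13.0 and 18.5 CPM. The single high value was vehicle replicate 3, and the other vehicle libraries all lay below the 4 TP-472 libraries. The means were 16.8 ± 14.7 CPM (SD, n = 4) and 15.8 ± 2.54 CPM (n = 4), and the log2 fold change was −0.09 (SE 0.476, adjusted p = 0.89). Without vehicle replicate 3 the vehicle mean was 9.53 ± 1.87 CPM (n = 3), and EGR1 was called higher at 0.73 on the log2 scale (SE 0.162, edgeR adjusted p = 0.00397). With the GC correction and all libraries it was 0.20 (adjusted p = 0.674), so the direction reversed between these fits.

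EGR2 (ENSG00000122877.16, chr10:62811996-62919900, minus strand), known for its role in myelinating Schwann cells, was scarcely expressed. It had 7, 4, 12 and 3 rounded counts in vehicle and 13, 18, 20 and 16 in TP-472 libraries. Vehicle replicate 3 overlapped the lower end of the TP-472 group, at 0.347 against 0.336 CPM. The means were 0.185 ± 0.118 and 0.455 ± 0.0963 CPM, and an exact two-sided permutation test gave p = 0.0571. With that library left out the vehicle mean was 0.131 ± 0.0566 CPM (n = 3), and the groups did not overlap. EGR2 was fitted by DESeq2, which uses no such filter, at 1.31 on the log2 scale (adjusted p = 0.0517).

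EGR3 (ENSG00000179388.9), an immediate early gene like EGR1, had 19, 9, 44 and 17 counts in vehicle and 20, 31, 39 and 47 in TP-472 libraries. The groups overlapped with and without vehicle replicate 3, and the exact permutation test gave p = 0.314. The means were 0.634 ± 0.442 and 0.929 ± 0.313 CPM, and the vehicle mean was 0.421 ± 0.143 CPM (n = 3) without that library. The gene annotated on its opposite strand, AC055854.1, had 0 counts in all libraries.

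KLF2 (ENSG00000127528.6, chr19:16324817-16327874, plus strand) is a factor of quiescent endothelium and T cells. It had 2.16, 2.10, 6.28 and 1.74 CPM in vehicle and 4.66, 3.92, 3.38 and 5.05 CPM in TP-472 libraries. As for EGR1, vehicle replicate 3 was the highest library of all, and the other vehicle libraries lay below all TP-472 libraries. The log2 fold change was 0.47 (SE 0.398, adjusted p = 0.371) with all libraries. It was 1.09 without vehicle replicate 3 (edgeR adjusted p = 0.000712) and 1.09 with the GC correction (adjusted p = 0.00178), and in both fits KLF2 was called.

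KLF4 (ENSG00000136826.15, chr9:107484852-107490482, minus strand), a factor of epithelial differentiation and of reprogramming to pluripotency, had 8.09, 7.19, 11.0 and 5.65 CPM in vehicle libraries. In TP-472 libraries it had 11.4, 10.9, 11.1 and 10.3 CPM, and vehicle replicate 3 fell within that range. The log2 fold change was 0.45 (SE 0.195, adjusted p = 0.0964), and KLF4 passed the test without vehicle replicate 3 at 0.65 (edgeR adjusted p = 0.00171) and with the GC correction at 0.62 (adjusted p = 0.00259).

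KLF5 (ENSG00000102554.14, chr13:73054976-73077542, plus strand), which promotes proliferation in gut epithelium and in injured smooth muscle, rose at a low level. It had 1.11, 0.834, 0.955 and 0.759 CPM in vehicle and 2.12, 1.52, 1.91 and 1.69 CPM in TP-472 libraries. The groups did not overlap, and vehicle replicate 3 lay within the range of the other vehicle libraries. The means were 0.914 ± 0.153 and 1.81 ± 0.262 CPM (n = 4 each), and the log2 fold change was 0.98 (SE 0.199, adjusted p = 0.00585). On the CPM of the filter, which is scaled by library total without TMM, KLF5 exceeded 1 in all 4 TP-472 libraries but in 2 vehicle libraries, so it reached the test mainly through the group in which it was higher. Its exact permutation p was 0.0286, the smallest that 70 assignments of 4 against 4 allow.

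KLF10 (ENSG00000155090.15), first described as a TGF-beta inducible early gene and known as a repressor of proliferation, rose most among the 8 tested genes. It had 36.0, 44.6, 36.7 and 46.5 CPM in vehicle and 134, 131, 130 and 128 CPM in TP-472 libraries. Every TP-472 library was far above every vehicle library, and vehicle replicate 3 lay among the others. The means were 41.0 ± 5.38 and 131 ± 2.54 CPM (n = 4 each), a 3.20-fold difference, which is 1.68 on the log2 scale (SE 0.115, adjusted p = 4.37e-05). Over all alternatives it lay between 1.54 and 1.74.

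KLF9 (ENSG00000119138.4, chr9:70384597-70414624, minus strand), a factor induced by glucocorticoids and thyroid hormone, fell. It had 98.6, 83.1, 74.6 and 84.8 CPM in vehicle and 26.9, 30.3, 28.8 and 32.7 CPM in TP-472 libraries. The groups were as cleanly separated as those of KLF10, in the opposite direction. The means were 85.3 ± 9.96 and 29.7 ± 2.46 CPM, a 2.87-fold difference, which is −1.52 on the log2 scale (SE 0.119, adjusted p = 8.05e-05). Over all alternatives it lay between −1.62 and −1.45.

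KLF6 (ENSG00000067082.15, chr10:3775996-3785281, minus strand), a widely expressed factor that can act as a growth suppressor, had 159, 122, 176 and 121 CPM in vehicle and 138, 141, 131 and 159 CPM in TP-472 libraries. The groups overlapped, and the log2 fold change was −0.02 (SE 0.146, adjusted p = 0.918). KLF13 (ENSG00000169926.11, chr15:31326855-31435665, plus strand), a relative of KLF9 known for its activation of CCL5 in T cells, had 38.4, 36.1, 65.2 and 36.2 CPM in vehicle and 39.9, 38.4, 38.3 and 43.4 CPM in TP-472 libraries. Its high value was again vehicle replicate 3, and the log2 fold change was −0.14 (SE 0.197, adjusted p = 0.603). Without that library the estimates were 0.09 for KLF6 and 0.12 for KLF13, neither of which passed the test.

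The ratio of vehicle replicate 3 to the other vehicle libraries can be set beside the GC content of each gene. It was 3.14 for KLF2 (65.2% GC), 1.77 for KLF13 (57.6% GC) and 1.58 for KLF4 (55.0% GC), beside medians of 2.54 for genes of 65 to 70% GC, 1.60 for genes of 55 to 60% GC and 1.25 for genes of 50 to 55% GC, the interval of KLF4. It was 1.06 for KLF5, 0.84 for KLF9 and 0.865 for KLF10, all between 46 and 48% GC, and 1.31 for KLF6 (45.9% GC), beside a median of 0.937 for genes of 45 to 50% GC. EGR1 stood furthest from the median of its GC interval, at 4.06, followed by EGR3 at 3.03 and EGR2 at 2.65.

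Levels of different genes were compared per kilobase of exon. In vehicle libraries KLF6 led with 23.5 ± 4.46 CPM per kb, followed by KLF9 with 16.5 ± 1.92 and KLF10 with 10.2 ± 1.34 CPM per kb. In TP-472 libraries KLF10 led with 32.7 ± 0.635 CPM per kb, ahead of KLF6 with 23.2 ± 1.97 and KLF9 with 5.74 ± 0.476 CPM per kb. In TP-472 libraries KLF10 stood apart from KLF6. With all vehicle libraries KLF9 stood apart from KLF6 and KLF10. KLF10 then overlapped EGR1 below it within 1 SD, so the place of KLF10 after KLF9 was not resolved from that of EGR1. When vehicle replicate 3 was left out, KLF10 was at 10.6 ± 1.39 CPM per kb and stood apart from KLF13, the next gene below it. KLF9 overlapped KLF6 within 1 SD in vehicle without replicate 3 (17.2 ± 1.65 and 21.8 ± 3.52 CPM per kb), and EGR1 in TP-472 libraries. EGR1 (5.36 ± 4.67 in vehicle and 5.02 ± 0.808 CPM per kb in TP-472 libraries) and KLF13 were neighbors in both groups and overlapped within 1 SD. Without vehicle replicate 3, EGR1 was at 3.04 ± 0.596 CPM per kb in vehicle, below KLF13 at 3.92 ± 0.14 CPM per kb and apart from it. KLF5, EGR3 and EGR2 closed the order in both groups, each under 0.5 CPM per kb.

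**Figure D4:**
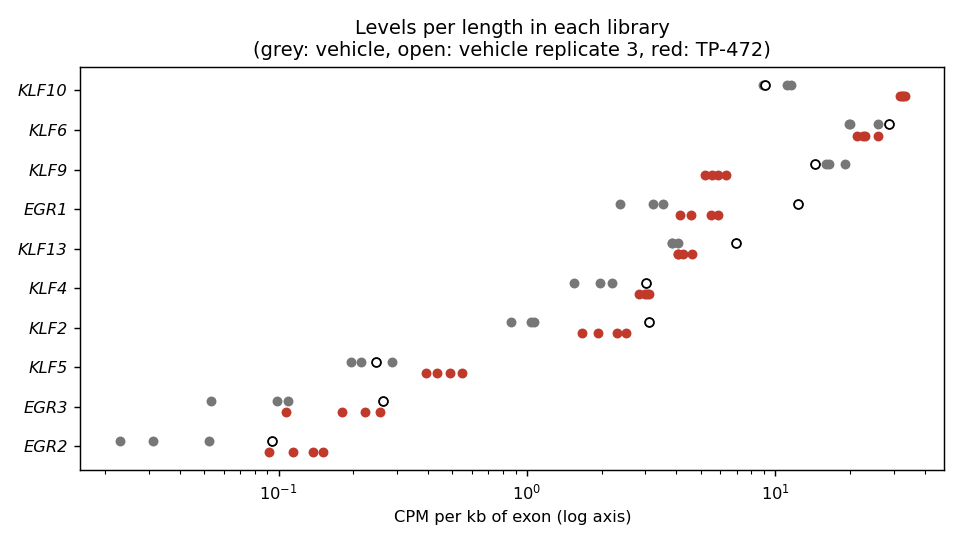
Level of the 10 genes in each library in CPM per kb of exon (log axis), with vehicle, vehicle replicate 3 and TP-472 libraries marked apart. KLF10 passes KLF6 and KLF9 in the TP-472 libraries, where its mean is 32.7 CPM per kb.

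Across the 8 libraries, the log2 levels of KLF9 and KLF10 ran in opposite directions (Pearson r = −0.982), and EGR1 and KLF2 ran together (r = 0.888). The r of EGR1 with KLF10 went from 0.0809 with 8 libraries to 0.819 with the 7 that remain without vehicle replicate 3. These values are descriptions, since the libraries fall into 2 treatment groups and share that difference, and for EGR1, KLF2 and KLF13 the high value of vehicle replicate 3 as well. By the same measure, the tested genes most like KLF10 were ARPC5L, WDR45B and PNO1 (r = 0.998 each), and those most like KLF9 were PARP14 (0.998), MAP2K6 (0.996) and HERC6 (0.996). For EGR1 they were GATAD2A (0.990), RAB36 (0.987) and TFDP1 (0.986). The nearest to KLF13 were BRD9, which encodes a target of the inhibitor (0.993, and 0.933 without vehicle replicate 3), and SLC25A22 (0.992, and 0.903 without it), and those to KLF6 were PLAGL2 (0.993) and ATP6V0A1 (0.990). SPTBN5 and SHB were nearest to KLF2 (0.991 and 0.983), FGF18 and ADAP2 to KLF4 (0.989 and 0.980), and DOCK4 and ZNF549 to KLF5 (0.982 and 0.975).

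Among the 22 other EGR, KLF and SP genes, 12 were tested, 2 were called lower and 0 higher by edgeR, beside 14.9% and 12.0% of all tested genes. At an unadjusted p under 0.05, 1 was higher and 4 lower, and DESeq2, which fitted all 22, called 2 higher and 4 lower, beside 24.1% of all genes it fitted (11.6% higher and 12.5% lower). KLF15, a factor of metabolism and of muscle differentiation, fell from 2.76 ± 0.62 to 0.99 ± 0.229 CPM, a log2 difference of −1.48 (SE 0.235, adjusted p = 0.00198). KLF17 fell from 2.50 ± 0.437 to 0.867 ± 0.198 CPM, with −1.52 (SE 0.227, adjusted p = 0.00148). Both passed the filter mainly through the vehicle group, in which they were higher. Without vehicle replicate 3, WT1 (0.68, adjusted p = 0.00289) and SP6 (1.04, adjusted p = 0.00293) were called higher as well, which made 4 of 12 against 25.5% of all genes.

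Genes upstream of the EGR and KLF genes were examined next, and in these short lists the counts of called genes can be set beside 26.9% of all tested genes. Of 6 genes for SRF and its partner factors, MRTFB, which encodes an actin-regulated coactivator of SRF, fell from 63.7 ± 16.9 to 32.2 ± 7.79 CPM (log2 fold change −0.98, adjusted p = 0.01), and no other was called. With the GC correction 3 of the 6 were called, 1 higher and 2 lower, against 28.1% of all genes. The 1 called higher was SRF itself (0.608, edgeR adjusted p = 0.000648), which with all libraries uncorrected had 50.8 ± 12.1 and 60.3 ± 2.96 CPM (0.25, adjusted p = 0.243). SRF was at 0.424 (adjusted p = 0.000599) when vehicle replicate 3 was left out, under the fold limit. ELK4, a partner factor of SRF, was called lower with the GC correction (−0.655, edgeR adjusted p = 0.00353). It was called lower without vehicle replicate 3 as well (−0.602, edgeR adjusted p = 0.00558), which made 2 of 6 against 25.5% of all genes. With all libraries uncorrected ELK4 was at −0.49 (adjusted p = 0.0618). Of the ERK5 and MEF2 genes, which lie upstream of KLF2, 4 were tested, and 1 was called: MAP2K5, the kinase that activates ERK5, was lower (−0.86, adjusted p = 0.0209).

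Of 8 corepressor genes 1 was called, and it was called higher, beside 12.0% of all tested genes called higher. HDAC2 rose from 90.3 ± 24.6 to 137 ± 3.70 CPM (0.60, adjusted p = 0.0402). Without vehicle replicate 3, in which HDAC2 was lowest at 54.1 CPM, the difference was 0.42 and under the fold limit. Of 7 coactivators and regulators of stability 1 was called, USP21, a deubiquitinase, which fell (−1.04, adjusted p = 0.0116).

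Of the 18 other immediate early genes, all were tested, and 9 rose and 0 fell, beside 12.0% of all genes called higher. NR4A2 and NR4A3 exceeded 1 CPM in no vehicle library and passed the filter through the TP-472 group alone, and without them 7 of 16 rose. DESeq2 also called 9 higher and 0 lower, beside 11.6% and 12.5% of all genes it fitted. At an unadjusted p under 0.05 edgeR had 10 higher and 0 lower. The median log2 fold change was 0.75, beside −0.03 over all tested genes. Without vehicle replicate 3, the highest vehicle library for 14 of the 18, 15 genes rose, beside 12.0% of all genes called higher. In that fit 13 of 16 rose when NR4A2 and NR4A3 were set aside. The median of the 18 was then 0.96, beside −2.14e-05 over all tested genes. IER3, a survival gene, rose from 9.16 ± 2.32 to 57.2 ± 5.52 CPM (log2 fold change 2.64, adjusted p = 5.95e-05). CCN2, a matrix-associated growth factor, rose from 8.91 ± 1.47 to 42.5 ± 4.81 CPM (2.25, adjusted p = 4.49e-05), and ATF3 rose from 6.75 ± 0.781 to 21.1 ± 1.53 CPM (1.64, adjusted p = 8.38e-05). FOSL1, an AP-1 subunit, rose from 9.90 ± 6.75 to 28.4 ± 3.01 CPM (1.52, adjusted p = 0.0158), and its log2 fold change was 2.11 without vehicle replicate 3. The orphan receptors NR4A3 (0.134 ± 0.0532 and 4.74 ± 1.16 CPM) and NR4A2 (0.177 ± 0.0932 and 2.12 ± 0.59 CPM) were the 2 that were scarcely detected in vehicle.

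**Figure D5:**
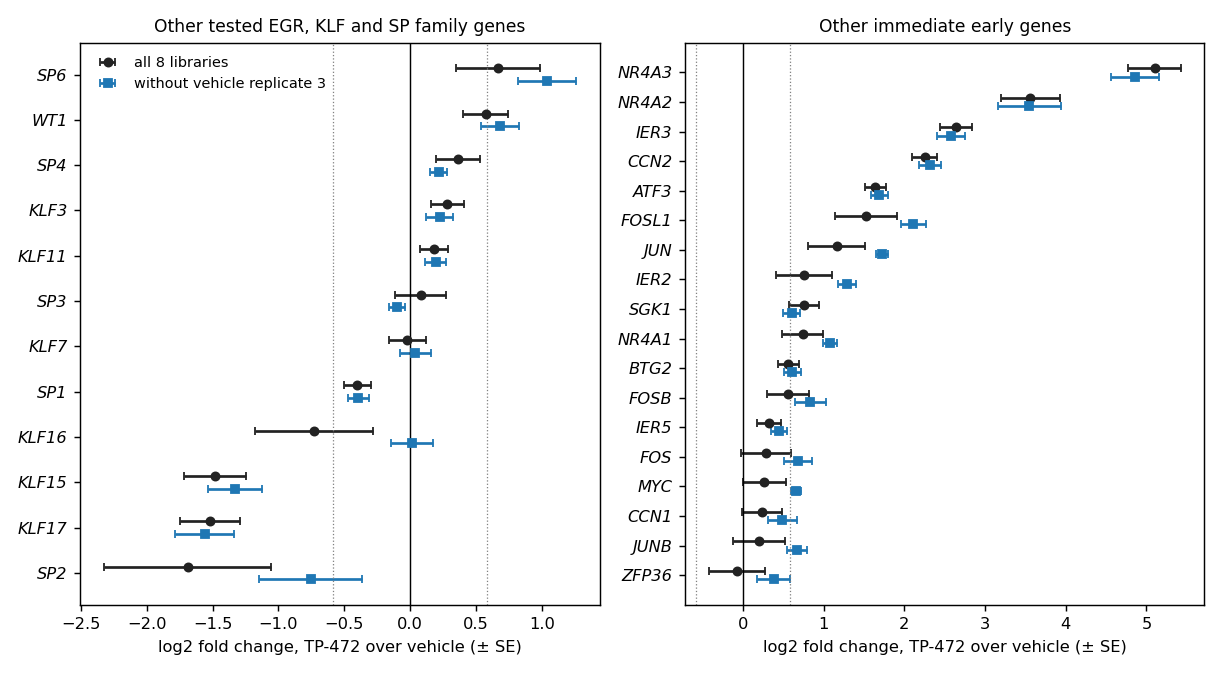
Log2 fold change of TP-472 over vehicle with its standard error for the 12 other tested EGR, KLF and SP genes (left) and the 18 other immediate early genes (right), with all 8 libraries and without vehicle replicate 3. Dotted lines mark a 1.5-fold change, NR4A3 lies at 5.10 and KLF17 at −1.52 with all libraries.

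Among textbook targets of KLF factors, 7 of 11 were tested, and 3 rose and 2 fell, beside 12.0% of all genes called higher and 14.9% called lower. CDKN1A, a cell cycle inhibitor that KLF4 and KLF6 can activate, rose from 3.99 ± 0.473 to 21.7 ± 1.62 CPM (2.44, adjusted p = 2.06e-05). SMAD7, an inhibitor of TGF-beta signaling that KLF10 represses, rose as well (1.73, adjusted p = 0.00246), as did CCND1 (1.04, adjusted p = 0.00106). TAGLN, a contractile gene that KLF4 represses, fell from 32.3 ± 3.40 to 20.3 ± 1.94 CPM (−0.67, adjusted p = 0.00397), but was not called with the GC correction (−0.467). DGKA fell by 0.82 on the log2 scale (adjusted p = 0.000917). Of the targets of EGR factors, 8 of 10 were tested, and F3, the coagulation initiator tissue factor, rose (0.85, adjusted p = 0.0131). This 1 of 8 is close to the 12.0% of all genes called higher.

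KLF9 is induced by glucocorticoids, and 6 of 7 genes of a list of glucocorticoid-responsive genes, KLF9 included, were tested. DUSP1 (1.53, adjusted p = 0.000158), SGK1 (0.755, adjusted p = 0.0131) and TSC22D3 (0.63, adjusted p = 0.0293) rose, and KLF9 fell, where 12.0% of all genes were called higher and 14.9% lower. FKBP5 (−0.144, adjusted p = 0.315) and PER1 (−1.07, adjusted p = 0.122) also had estimates below 0 but were not called. The list was thus split, with 3 estimates above 0 and 3 below, KLF9 included. Without vehicle replicate 3, PER1 was at −0.256. TSC22D3 was under the fold limit without vehicle replicate 3, at 0.52.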

How the data were processed

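RNA from 4 vehicle and 4 TP-472 libraries of SK-UT-1 was analysed. The authors estimated transcript abundance with Salmon 1.4.0 against GRCh38 and summed it by gene, and the deposited values are estimated counts, neither normalized nor filtered. The labels name a TruSeq RNA kit that does not mark strand, whereas the study's methods describe strand-specific libraries, so reads of antisense pairs may not be separable. Counts were rounded, scaled by TMM, filtered at 1 CPM in at least 4 libraries and tested with edgeR 4.0.16 in R 4.3.3, with p-values adjusted over all 14073 tested genes. CPM used a prior count of 2 where log-transformed, and levels were compared by exact permutation tests. Exon lengths and coordinates came from GENCODE 29, and promoter sequences from RefSeq.

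The members and gene lists were chosen with earlier results of these data known. Named were all 10 genes, the called genes of each list (up to 6 with the largest change) and, for each tested member, the 3 genes with the most similar pattern, of which the first 2 are given for KLF2, KLF4, KLF5, KLF6 and KLF13. The lowest mean chi-square between libraries of a group was 12.8, so none was a copy of another. Same-numbered libraries did not deviate together (correlations −0.0554, 0.116, −0.171 and −0.177), and numbers were not treated as pairs. Alternatives were DESeq2 1.42.0, limma-voom 3.58.1 with and without quality weights, other scalings, filters and thresholds, a GC correction (GC content of the longest GENCODE transcript, known for 99.3% of tested genes), the replicate block and each library left out. A GC correction joined to leaving out vehicle replicate 3, and the GC correction of the lists, were chosen after seeing the data. On simulated counts for this comparison, edgeR recovered 129 of 200 genes changed 2-fold among 13903 genes, with 5 false calls.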

Additional observations from a re-analysis of the deposited data

Results flagged for a closer look

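Vehicle replicate 3 was far from the other vehicle libraries in EGR1 (38.7 CPM), KLF2 (6.28 CPM) and KLF13 (65.2 CPM). In the same library the GC trend, 0.658 on the log2 scale per 10 points of GC, and the median correlation with its own group, 0.914, also stood apart. TP-472 replicate 4 had the lowest median correlation with its group, 0.993, and the other 3 lay close together. A library was set apart when its gap to the nearest value, as a share of the group's range, exceeded a critical value for 4 samples. Of 26 groups of 4 libraries examined, 6 held such a library, and chance gives about 1 in 20 for a single group. However, 20 of the 26 groups were EGR and KLF genes measured in the same libraries. All values set apart except that of TP-472 replicate 4 came from vehicle replicate 3. The groups were thus not independent, and their count cannot be compared with that chance rate. With all libraries corrected for their GC trend, KLF2 was called higher, and EGR1 and KLF13 were not called.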

How the results depend on the processing

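KLF5, KLF9 and KLF10 kept their direction and their call in every fit of single genes that was run, except that KLF5 was not tested under the stricter filter, and leaving out 1 library gave 3 to 6 called genes among the 8, the highest without vehicle replicate 3. Quality weights gave 6, the GC correction 5, and the GC correction without vehicle replicate 3 gave 6. At an adjusted p under 0.01, 2144 genes were called in all, and leaving out 1 library gave 2690 to 4223. The estimate of EGR1 was above 0 with voom (0.22), quality weights (0.715), the GC correction (0.195) and the GC correction without vehicle replicate 3 (0.75), and ran from −0.34 to 0.73 with 1 library left out. With the replicate block, EGR1 was 0.26, and no gene of the ERK5 list (0) or corepressor list (0) was called. KLF6 was above 0 with quality weights (0.17) and with the GC correction without vehicle replicate 3 (0.050), and ran from −0.0974 to 0.0867 with 1 library left out. KLF13 was above 0 with quality weights (0.11), the GC correction (0.15) and that correction without vehicle replicate 3 (0.18), and ran from −0.22 to 0.12. Without vehicle replicate 3, where 25.5% of all tested genes were called, the calls were 4 of 12 in the other family list and 0 of 8 corepressors. In that fit they were also 2 of 6 SRF genes, 15 of 18 immediate early genes and 2 of 8 EGR targets. With the GC correction, where 28.1% of all tested genes were called, the family list had 4 of 12 and the corepressors 0 of 8. The same fit called 3 of 6 SRF genes, 2 of 7 coactivators and 2 of 8 EGR targets. Total-count scaling gave 0 of 8 corepressors. Of the 8 corepressors, edgeR had 4 at an unadjusted p under 0.05 with all libraries and 5 without vehicle replicate 3, and DESeq2 called 1. The causes were not tested. Low counts limit EGR2 and EGR3.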

Other observations

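Of the 22 other EGR, KLF and SP genes, 10 lay under the filter, and in 4 of these the groups did not overlap. KLF12 had 1, 0, 0 and 0 rounded counts in vehicle and 5, 5, 6 and 8 in TP-472 libraries. SP9 had 4, 2, 3 and 1 in vehicle and 15, 5, 17 and 16 in TP-472 libraries, and EGR4 had 0, 1, 1 and 1 and then 2, 3, 6 and 2. KLF8 alone of the 4 was lower with TP-472, at 9, 15, 9 and 11 in vehicle and 1, 6, 1 and 1 in TP-472 libraries. Groups that do not overlap fix the exact permutation p at 0.0286, the smallest that this design allows, so the p adds nothing to the counts. Groups did not overlap for 45.4% of the tested genes, a share that does not cover genes under the filter. These genes were chosen after their values were seen.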
